A study of Mus musculus with 9 samples.

Results

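Liver of db/db mice given FGF19ΔKLB, an altered form of the hormone FGF19, was compared with liver of db/db mice given FGF19WT, the unaltered form. The comparison takes 6 of the 9 libraries of the study, 3 per group, picked by their sample titles and by no measured value. Every mouse was db/db, a strain with a broken leptin receptor that becomes obese and diabetic, and treatment ran for 12 weeks. Another group of 3 libraries received vehicle, which the design text gives as PBS. Its libraries enter the estimate of spread and are shown for their levels. Dose, route, sex and age are not given in the sources used here, and neither are the altered residues of FGF19ΔKLB. Its data columns carry the tag HBS in place of ΔKLB, and the sample descriptions tie the tag to the titles. Nothing says whether the 3 libraries of a group came from separate animals, so p-values cover only the spread between libraries, which may be technical.

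FGF19 is released by the intestine after a meal and has Fgf15 as its mouse counterpart. On hepatocytes it binds the receptor FGFR4 together with β-Klotho, the product of Klb, as co-receptor, and the complex activates the RAS-ERK pathway. The best known response is a drop of Cyp7a1, the rate-limiting enzyme of the main route of bile acid synthesis, and long exposure of mice to FGF19 is known to cause liver tumours through FGFR4. The series title names tumour risk and receptor dimerization as its subject. Bulk liver RNA cannot tell a smaller number of cells of one type from less RNA per cell.

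Count totals ran from 65.1 to 73.3 M per library, and low counts piled up at multiples of 4, so a library holds about 16.3 to 18.3 M read pairs. Hepatocyte markers dominated all libraries, with albumin transcripts taking 8.67% to 16.4% of counts with FGF19WT and 16.3% to 21.1% with FGF19ΔKLB. Levels below are in CPM, counts relative to library size after TMM scaling, in the order of libraries 1, 2 and 3. The FGF19WT libraries were not alike. On the first principal component, which held 57.9% of the variance of the 6 libraries, FGF19WT library 1 stood at -71.7, beside FGF19ΔKLB at -64.1, -71.3 and -44.1, whereas FGF19WT libraries 2 and 3 stood at 110.5 and 141. Whether the sampled tissue or the labelling differs between FGF19WT library 1 and libraries 2 and 3 was not tested and cannot be settled with these files, and every FGF19WT value below carries that doubt. The library nearest to FGF19WT library 1 was FGF19ΔKLB library 2. Among 4327 genes that libraries 2 and 3 both held above every FGF19ΔKLB library, library 1 was above as well in 26.8% and below every FGF19ΔKLB library in 28.2%.

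Genes of 2 kinds are therefore kept apart below. In the first, all 3 FGF19WT libraries lay on the same side of all 3 FGF19ΔKLB libraries. In the second, only FGF19WT libraries 2 and 3 stood apart. Of 18142 genes tested, 1298 (7.15%) were higher in every FGF19ΔKLB library than in any FGF19WT library and 1160 (6.39%) were lower. These percentages are the background for the counts of non-overlapping genes given for each list.

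With edgeR's quasi-likelihood test, no gene reached an adjusted p under 0.05 in either direction (0% higher, 0% lower). At an unadjusted p under 0.05 there were 823 higher (4.54%) and 1444 lower (7.96%). The smallest adjusted p was 0.137, shared by Card10, Celsr1 and Gm13017. DESeq2, an alternative, called 216 genes higher with FGF19ΔKLB (1.19%) and 618 lower (3.41%). It gave no adjusted p to 220 of the genes tested, which count as not called. The third tool, limma on log2(FPKM + 1), called 0 of 10723 genes in either direction. Every DESeq2 call or adjusted p given below thus belongs to a gene that edgeR over 9 libraries did not call. Over the 6 libraries of the compared groups edgeR called 1 gene higher (0.00584%) and 0 lower (0%), and 462 (2.7%) and 1044 (6.1%) at an unadjusted p under 0.05. Without FGF19WT library 1, edgeR called 2077 genes higher (10.9%) and 1769 lower (9.3%). With FGF19WT library 1 as the only library of its group it called 6 higher (0.0301%) and 1 lower (0.00502%).

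Fatty acid synthesis genes stood higher with FGF19ΔKLB, and the difference had a similar size against each FGF19WT library. Of 16 members tested, 10 were above FGF19WT without overlap and none was below, beside 7.15% and 6.39% of all genes. Relative to the FGF19ΔKLB mean, the list's median level was -0.95, -0.93 and -1.0 on the log2 scale in FGF19WT libraries 1, 2 and 3. The median log2 difference over the list was 1.01, beside 0.01 over all genes tested, and 0.97 with FGF19WT library 1 alone. DESeq2 called 6 members higher and edgeR none.

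Fasn, the fatty acid synthase (chr11:120805846-120824547 on GRCm38, minus strand), stood at 155, 102 and 126 CPM with FGF19WT and at 540.3, 528 and 606 CPM with FGF19ΔKLB. The group means were 128 ± 26.5 and 558 ± 42.2 CPM (SD, n = 3), a 4.37-fold difference in the edgeR fit. Every FGF19ΔKLB library held over 3 times the CPM of any FGF19WT library, and the vehicle libraries spread from below FGF19WT upward at 84, 379 and 199.5 CPM. The log2 difference was 2.13 (SE 0.47), with an adjusted p of 0.237 from edgeR and 9.61e-04 from DESeq2. The deposited FPKM gave the same order, 12.6, 9.78 and 11 with FGF19WT against 42.6, 42.9 and 43.3 with FGF19ΔKLB.

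The enzymes on either side of Fasn had the same order. Acly, which makes cytosolic acetyl-CoA from citrate, stood at 102, 45.7 and 45.6 CPM with FGF19WT and 182, 246 and 204 CPM with FGF19ΔKLB (DESeq2 adjusted p 0.00494). Acacb, an acetyl-CoA carboxylase whose product malonyl-CoA restrains fatty acid oxidation, stood at 33.1, 38.2 and 31.7 against 64.6, 57.5 and 74 CPM (0.00586 by DESeq2). Acaca, the carboxylase that supplies Fasn, stood at 15.8, 13.3 and 32.1 against 55.7, 33.7 and 36.5 CPM, a narrow gap that missed DESeq2's threshold at 0.213. None of these 3 genes had overlapping groups. Elovl6, which lengthens palmitate, stood at 31.2, 65.6 and 27.4 against 123, 97.8 and 145 CPM (0.00482 by DESeq2). Scd1, the desaturase that makes oleate, stood at 1735, 1635 and 802 against 5136, 2226 and 5469.5 CPM (0.0206), with FGF19ΔKLB library 2 the closest to FGF19WT. Fads2, a desaturase of polyunsaturated fatty acids, stood at 393, 382 and 385 against 950.4, 589 and 761 CPM (0.0228).

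The regulators of the pathway were less even. Srebf1, which encodes the transcription factor SREBP-1, stood at 140.01, 43 and 59.2 CPM with FGF19WT and 259, 271 and 152 CPM with FGF19ΔKLB. Thrsp, a lipogenic nuclear protein, stood at 117, 9.98 and 11.3 against 196, 438 and 171 CPM. In both genes FGF19WT library 1 lay nearer to FGF19ΔKLB than libraries 2 and 3 did, and DESeq2's adjusted p was 0.0666 and 0.0742. Mlxipl, which encodes the glucose-sensing factor ChREBP, overlapped between the groups at 238, 278 and 381 against 357, 345 and 309 CPM. Pklr, the liver pyruvate kinase, did not overlap at 264, 271 and 174 against 471, 531 and 609 CPM (DESeq2 adjusted p 0.146). Of the other 5 members that overlapped, Me1, Elovl5, Fads1 and Insig2 had positive log2 differences of 0.46 or less and Scd2 a negative one of -1.04.

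**Figure D1:**
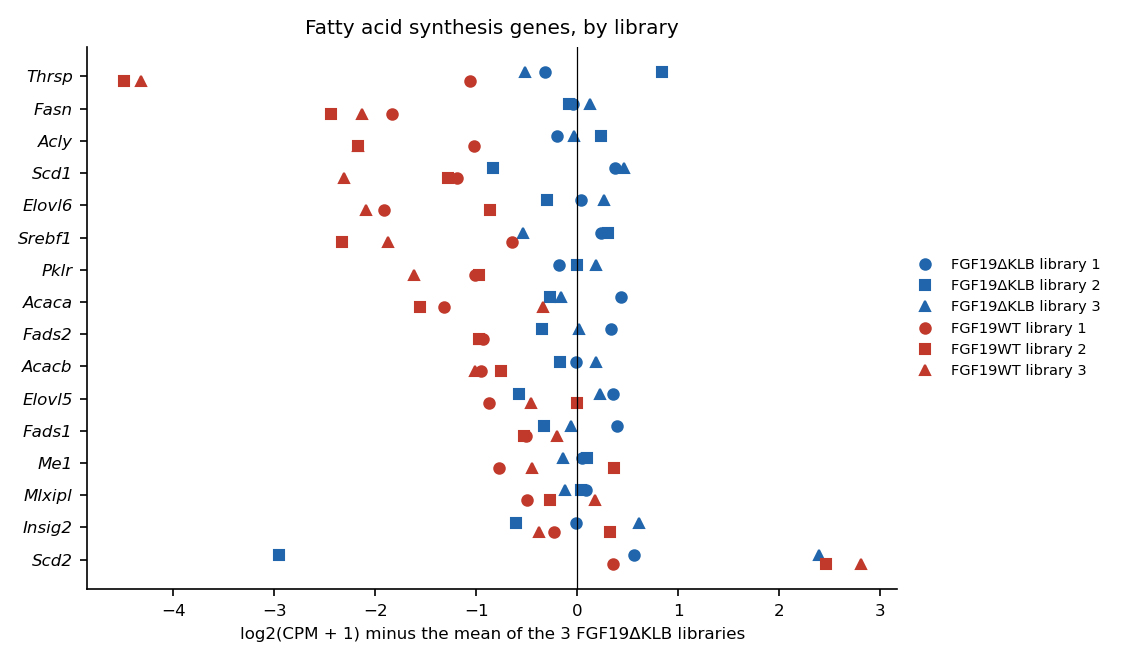
Each row is a fatty acid synthesis gene, ordered by its log2 difference, and each point is a library (blue FGF19ΔKLB, red FGF19WT; circle, square and triangle for libraries 1, 2 and 3). The x axis is log2(CPM + 1) minus the mean of the 3 FGF19ΔKLB libraries, and in 10 of the 16 genes all red points lie left of all blue points.

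Cholesterol synthesis genes stood higher with FGF19ΔKLB to a lesser degree, and over the list FGF19WT library 1 was not apart from FGF19ΔKLB. Of 23 members tested, 22 had a positive log2 difference, 6 were above FGF19WT without overlap and none was below. The median difference was 0.82, and 0.39 with FGF19WT library 1 alone. The list's median level was -0.31, -0.87 and -0.92 in FGF19WT libraries 1, 2 and 3. In FGF19ΔKLB it was -0.18, -0.34 and 0.65, a range that takes in FGF19WT library 1. Idi1, the isopentenyl diphosphate isomerase, stood at 27.2, 20.2 and 3.96 CPM with FGF19WT and 56.3, 59.8 and 70.8 CPM with FGF19ΔKLB (DESeq2 adjusted p 0.0262). Pmvk, the phosphomevalonate kinase, stood at 22.7, 18.6 and 15 against 35.5, 30.1 and 44.4 CPM (0.0198). These were the 2 members DESeq2 called. Fdps, the farnesyl diphosphate synthase, did not overlap either. FGF19ΔKLB library 3 was the highest of its group in many members, as in Sqle at 35, 57.4 and 135 CPM against 39.7, 45.5 and 43.5 CPM with FGF19WT.

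Promoters of both lists were read from RefSeq, 250 bases up to the start on GRCm38.p6, because SREBP is known to work with the CCAAT-binding factor NF-Y at lipid genes. A CCAAT box, CCAAT on either strand, was found in 7 of 13 matched fatty acid synthesis promoters (53.8%) and in 15 of 16 matched cholesterol synthesis promoters (93.8%), beside 4270 of 11871 promoters of all tested genes (36.0%). The sterol response element TCACNCCAC was found in 0 and 1 of them, beside 1.05% of all. Neither motif contains the other, and a match is only a description of these letters. Among members with a lower level in all 3 FGF19WT libraries and a DESeq2 call, Fasn, Acacb, Idi1 and Pmvk held CCAAT, while Acly, Elovl6 and Fads2 held none. Of the fatty acid synthesis members apart without a call, Srebf1 and Thrsp held it and Acaca and Pklr did not. Of those that overlapped, Elovl5, Insig2 and Mlxipl held it and Me1 did not. The Acaca window is doubtful, since its RefSeq start lies 65766 bases from the start in the deposited table. Fasn, Idi1 and Pmvk are shown as examples with a match and Acly as one without, with CCAAT or its reverse complement ATTGG in capitals. Fasn has 3 matches, the pair nearest the start overlapping, with first bases 90, 62 and 59 bases before the start (chr11:120824548-120824797, minus strand). Idi1 has 2, at 45 and 14 bases before a RefSeq start that lies 105 bases from the start in the deposited table (chr13:8885356-8885605, plus strand). Pmvk has 1, at 136 bases before the start (chr3:89454291-89454540, plus strand). The Acly window is chr11:100528001-100528250, minus strand.
Fasn: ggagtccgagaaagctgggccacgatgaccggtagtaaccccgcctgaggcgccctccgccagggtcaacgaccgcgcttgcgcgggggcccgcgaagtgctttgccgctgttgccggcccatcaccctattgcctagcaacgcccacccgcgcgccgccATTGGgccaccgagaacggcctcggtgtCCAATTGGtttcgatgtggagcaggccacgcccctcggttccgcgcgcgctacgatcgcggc
Idi1: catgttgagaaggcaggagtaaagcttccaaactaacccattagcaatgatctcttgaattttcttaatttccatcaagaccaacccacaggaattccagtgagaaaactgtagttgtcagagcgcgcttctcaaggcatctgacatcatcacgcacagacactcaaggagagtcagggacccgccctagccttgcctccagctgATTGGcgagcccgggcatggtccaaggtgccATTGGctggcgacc
Pmvk: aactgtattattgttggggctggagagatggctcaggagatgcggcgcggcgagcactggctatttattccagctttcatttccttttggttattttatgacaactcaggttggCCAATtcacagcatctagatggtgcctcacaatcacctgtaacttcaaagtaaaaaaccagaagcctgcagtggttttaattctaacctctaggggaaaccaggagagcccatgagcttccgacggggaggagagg
Acly: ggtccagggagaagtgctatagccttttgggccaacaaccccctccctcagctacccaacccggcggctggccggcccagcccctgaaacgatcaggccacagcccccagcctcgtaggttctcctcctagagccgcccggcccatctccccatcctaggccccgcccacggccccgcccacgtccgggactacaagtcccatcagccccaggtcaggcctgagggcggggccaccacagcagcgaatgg

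Genes that handle stored fat split by direction. Pnpla3, a lipase-like protein of lipid droplets under SREBP control, stood at 1.6, 0.185 and 0.624 CPM with FGF19WT and 13.8, 8.94 and 5.91 CPM with FGF19ΔKLB (log2 difference 3.57, SE 1.0, DESeq2 adjusted p 0.00435). Its relative Pnpla5, on the same chromosome, stood at 0.249, 0.0987 and 0.0871 against 4.4, 2.5 and 5.49 CPM (1.39e-04). Both stood under 2 CPM in every FGF19WT library and above 2 CPM in every FGF19ΔKLB library. In the other direction, Vldlr, the receptor for very low density lipoprotein, stood at 40.6, 88.9 and 72.7 against 17.7, 17 and 7.16 CPM (log2 difference -2.27, DESeq2 adjusted p 5.20e-05). Fitm1, a protein of lipid droplet formation, stood at 14.9, 37.4 and 53.3 against 4.31, 9.03 and 7.39 CPM (1.44e-04). Pparg, the fat-storage transcription factor, stood at 17.8, 26.2 and 17.3 against 12.3, 13.3 and 9.37 CPM (0.0263), with the vehicle libraries at 21.5, 26.8 and 21.3 CPM. In the whole list of 26 lipid droplet and PPARγ target genes, 2 were above without overlap and 5 below, DESeq2 called 1 higher and 4 lower, and the median difference was -0.24. Cidec, a lipid droplet protein abundant in the vehicle libraries at 33.6, 30.5 and 25.3 CPM, overlapped between both FGF19 groups at 3.93, 4.01 and 1.35 and 3.07, 5.02 and 3.52 CPM.

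Sugar metabolism showed a few genes of the first kind. Khk, which phosphorylates fructose, stood at 426, 259.8 and 173 CPM with FGF19WT and 689, 625 and 692 CPM with FGF19ΔKLB (DESeq2 adjusted p 0.0242). Fbp1, a gluconeogenic phosphatase, stood at 581, 220.1 and 118 against 1011, 705 and 1061 CPM (0.0459). Slc2a1, the glucose transporter GLUT1, was lower with FGF19ΔKLB in every library, at 11.2, 11.4 and 14.1 against 6.73, 5.8 and 8.19 CPM (0.0384). Of 11 gluconeogenesis genes 3 were above without overlap, and of 17 glucose uptake and glycolysis genes 4 were above and 2 below. Pck1, the first enzyme of gluconeogenesis, was of the second kind at 1993, 43.3 and 49.7 against 1136, 1426 and 2278 CPM.

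Bile acid synthesis genes were divided. Of 14 members tested, 2 were below FGF19WT without overlap and none above, DESeq2 called 5 lower, and the median difference was -0.09. Cyp7b1, the oxysterol hydroxylase of the alternative route (chr3:18071950-18243338 on GRCm38), stood at 12.9, 15.2 and 30.4 CPM with FGF19WT and 4.9, 5.61 and 5.49 CPM with FGF19ΔKLB. The FGF19WT and vehicle libraries overlapped, the latter at 12.7, 14.7 and 12.1 CPM, while the 3 FGF19ΔKLB libraries lay within 1 CPM of each other below both. The log2 difference was -1.87 (SE 0.31), with an adjusted p of 0.237 from edgeR and 1.95e-05 from DESeq2. Hsd3b7, a later enzyme of both routes, stood at 175, 446 and 521 against 147, 89.9 and 142 CPM (0.00461 by DESeq2), with library 1 close to the FGF19ΔKLB range.

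Cyp7a1 was of the second kind. It stood at 3.66, 83.4 and 118 CPM with FGF19WT, 9.49, 7.61 and 5.47 CPM with FGF19ΔKLB and 84.9, 103 and 70.1 CPM with vehicle. FGF19WT library 1 was thus the lowest of all 9 libraries, and libraries 2 and 3 were at the vehicle level. DESeq2 gave an adjusted p of 0.00597 for a log2 difference of -3.19 over the 3 libraries, but with FGF19WT library 1 alone the difference had the opposite sign, 1.03, and was not called. Cyp8b1, the 12-hydroxylase that sets the share of cholic acid, was far under vehicle (219, 311 and 136 CPM) in both FGF19 groups, at 5.71, 1.21 and 0.885 and 9.34, 0.957 and 47.6 CPM, which overlapped. Cyp27a1, which opens the alternative route, stood at 119, 268 and 386 against 109.7, 123 and 80.5 CPM (0.0314 by DESeq2). Nr0b2, the repressor SHP that bile acids induce, overlapped at 49.3, 29.5 and 31.7 and 37.3, 29.8 and 37.9 CPM. The export pump gene Abcb11 overlapped as well at 233, 249.6 and 417 and 255, 148 and 261 CPM, whereas Abcc4, a basolateral efflux pump, stood at 7.05, 107 and 147 against 6.17, 5.35 and 2.69 CPM (2.77e-05), a gap carried by libraries 2 and 3.

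Receptor transcripts were present in all libraries. Fgfr4 stood at 34, 32.7 and 33.6 CPM with FGF19WT and 44.2, 32.3 and 49.7 CPM with FGF19ΔKLB, overlapping, with a log2 difference of 0.33 (95% interval -0.04 to 0.70). Klb stood at 27.4, 11 and 10.01 against 32.3, 19.1 and 29.8 CPM, with a difference of 0.75 (-0.15 to 1.65). FGF19WT library 1 lay within the FGF19ΔKLB range of Klb, and libraries 2 and 3 held less. Of 8 genes tested on the receptor list, which also holds the adaptor Frs2 and the ligand Fgf21, Fgfr3 alone did not overlap, at 21.6, 9.67 and 9.07 against 23, 25.4 and 22.4 CPM, and the FPKM of the same gene did overlap.

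The feedback genes that ERK signalling induces were read from a list of 14. None was above without overlap, 2 were below, DESeq2 called the same 2 lower, and the median difference was -0.26. Dusp4, an ERK phosphatase, stood at 3.74, 15.1 and 9.32 CPM with FGF19WT and 1.88, 2.35 and 3.51 CPM with FGF19ΔKLB (DESeq2 adjusted p 0.00857). Spred2, an inhibitor of RAF activation, stood at 11.9, 36.9 and 34 against 10.1, 7.42 and 9.84 CPM (0.00494). In both, FGF19WT library 1 lay just above the FGF19ΔKLB range, and with it alone the log2 differences were -0.54 and -0.38 in place of -1.87 and -1.60. Dusp6, the phosphatase most specific to ERK, stood at 38.9, 94.8 and 77.7 against 49.7, 44.8 and 38.9 CPM and overlapped, with vehicle at 24.9, 20.4 and 19.1 CPM below both groups. Spry4, a sprouty inhibitor of receptor signalling, went the other way in libraries 2 and 3, at 37.1, 8.77 and 7.69 against 39.6, 31.5 and 31.3 CPM. Egr1, an immediate early gene, stood at 41, 128 and 172 against 70.4, 29.3 and 69 CPM, and all 6 libraries were above vehicle at 13.3, 12.5 and 15.9 CPM.

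The widest gaps between the groups, 12 in each direction by the distance between the nearest libraries, held genes of several kinds. Card10, a scaffold protein of NF-κB signalling (chr15:78775138-78803042 on GRCm38), had even values, 18.9, 19.1 and 20.1 CPM with FGF19WT against 7.07, 7.27 and 5.73 CPM with FGF19ΔKLB. The vehicle libraries, at 8.53, 6.46 and 6.24 CPM, were at the FGF19ΔKLB level. Its log2 difference was -1.54 (SE 0.18), with -1.50 for FGF19WT library 1 alone, and an adjusted p of 0.137 from edgeR and 5.47e-12 from DESeq2. The FPKM were 3.4, 4.06 and 3.87 against 1.23, 1.3 and 0.906.

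Inhba, the βA subunit of the growth factors activin and inhibin, stood at 4.92, 8.39 and 5.66 CPM with FGF19WT and 24.1, 36.8 and 29.4 CPM with FGF19ΔKLB. FGF19WT overlapped with vehicle, at 3.72, 10.3 and 6.65 CPM, and all FGF19ΔKLB libraries were above both. The log2 difference was 2.25 (SE 0.38, DESeq2 adjusted p 1.83e-05). Lepr, the leptin receptor gene whose splicing is disrupted in db/db mice, stood at 4.35, 9.01 and 10.7 against 41.9, 26.3 and 34.1 CPM, with vehicle at 1.52, 4.17 and 3.07 CPM (2.09, SE 0.43, 6.35e-04). These counts take in every Lepr transcript form. Serpina12, which encodes the adipokine vaspin, stood at 41.5, 5.74 and 6.43 against 111, 99.6 and 124 CPM (0.0158), with FGF19WT library 1 between. Tmem168, a membrane protein gene, stood at 3.81, 4.53 and 0.653 against 18.6, 20.3 and 16.9 CPM (0.00336), and Ncoa2, a coactivator of nuclear receptors, at 6.43, 5.96 and 2.98 against 30.4, 23.3 and 31.3 CPM (1.39e-04).

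Several of the genes below FGF19WT encode enzymes of drug and steroid metabolism. Cyp1a2, a pericentral cytochrome, stood at 262, 1133 and 1397 CPM with FGF19WT and 64.9, 126 and 44 CPM with FGF19ΔKLB (DESeq2 adjusted p 8.37e-06). Ces3a, a carboxylesterase, stood at 517, 1092 and 724 against 69.4, 178 and 239.7 CPM (9.14e-04), with vehicle at the FGF19WT level (786, 1296 and 565 CPM). Cyp2c55 stood at 3.24, 28.5 and 79.7 against 0.704, 0.897 and 1.51 CPM (4.55e-07), with library 3 far above library 1 within FGF19WT. Mbnl2, a splicing regulator, stood at 19.9, 45.5 and 28.9 against 10.9, 11.5 and 8.83 CPM (0.00337). Cln6, a lysosomal disease gene, stood at 8.25, 39.2 and 33.8 against 4.43, 4.14 and 2.59 CPM and Fam171a1 at 5.27, 37.8 and 20.8 against 2.33, 2 and 2.11 CPM, with FGF19WT library 1 the nearest to FGF19ΔKLB in both.

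Some genes of this set are uncertain because reads can be shared. Cyp2a4 and Cyp2a5 are near-identical neighbours with opposite orders. Cyp2a4 stood at 257, 77.6 and 176 CPM with FGF19WT and 745, 854 and 1173 CPM with FGF19ΔKLB (DESeq2 adjusted p 6.59e-04), and Cyp2a5 at 1459, 2242 and 4599.7 against 425, 874 and 221 CPM (0.00109). The pseudogene Cyp2a21-ps went with Cyp2a5, at 4.23, 5.26 and 12.6 against 0.909, 2.06 and 1.15 CPM. Hcn3 overlaps Pklr on the opposite strand, and its 16.5, 19.2 and 7.6 against 82.5, 83.1 and 72.9 CPM cannot be told from Pklr reads without strand. Adnp overlaps Gm20716 on the same strand and was nearly absent from FGF19WT (0.0586, 0.247 and 0.203 CPM) and from vehicle library 1, but present in FGF19ΔKLB (52.8, 49.3 and 46.4 CPM) and the other vehicle libraries (0.0668, 47.4 and 45 CPM). Klhdc7a had no count in FGF19WT library 1 (0, 3.64 and 23.2 CPM against 111, 92.6 and 115 CPM). Such on-off values were not followed to the reads here.

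**Figure D2:**
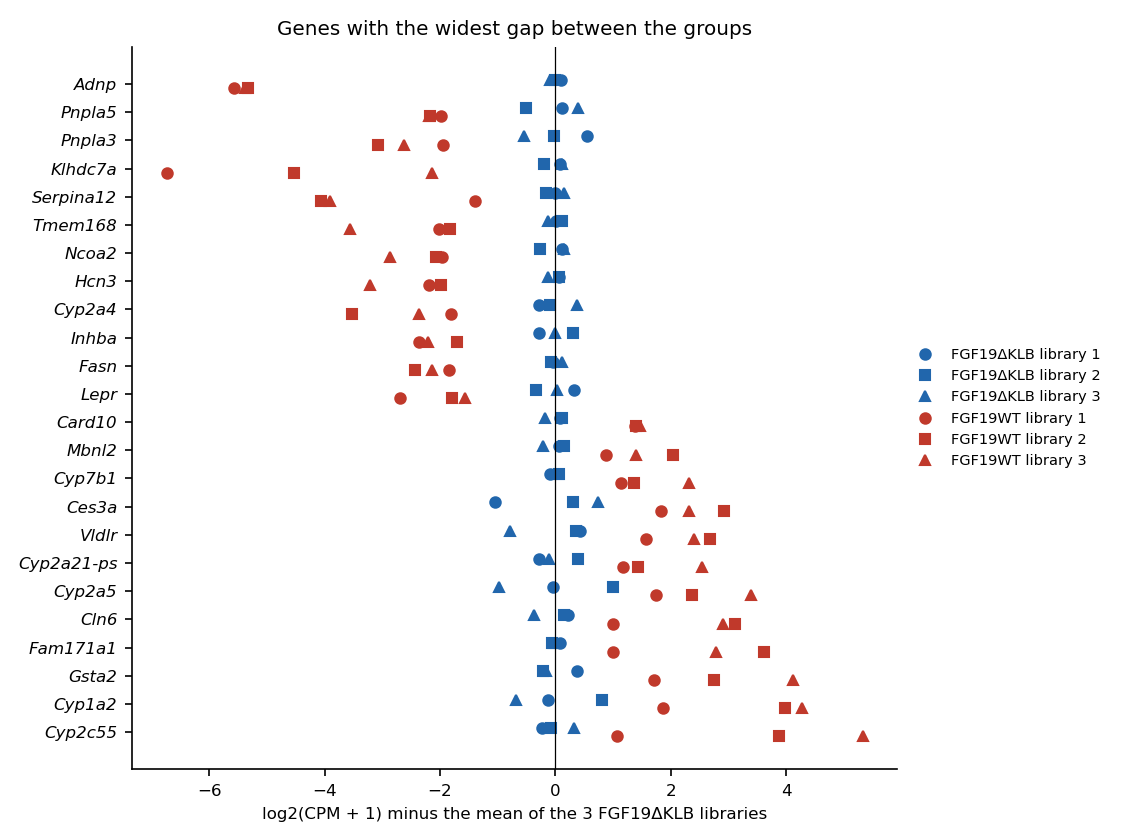
Rows are the 24 genes with the widest gap between the groups, ordered by log2 difference, and points are libraries (blue FGF19ΔKLB, red FGF19WT; circle, square and triangle for libraries 1, 2 and 3). The x axis is log2(CPM + 1) minus the FGF19ΔKLB mean. The genes were chosen for this gap, and the plot shows that the 3 red points of Card10 lie together while those of Cyp2c55 and Klhdc7a spread widely.

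Targets of NRF2, the factor that switches on antioxidant and glutathione genes, stood lower with FGF19ΔKLB, mostly against FGF19WT libraries 2 and 3. Of 14 members tested, 8 were below FGF19WT without overlap and none above, beside 6.39% of all genes, and DESeq2 called 4 lower. The median difference was -1.12, but -0.29 with FGF19WT library 1 alone. Relative to the FGF19ΔKLB mean, the list's median level was 0.29, 1.31 and 1.36 in FGF19WT libraries 1, 2 and 3. In vehicle it was 0.14, 0.33 and 0.28, close to FGF19WT library 1, unlike Gsta2 below. Gsta2, a glutathione transferase, stood at 23.1, 48.5 and 126 CPM with FGF19WT and 8.56, 5.29 and 5.55 CPM with FGF19ΔKLB, a 10.2-fold difference (DESeq2 adjusted p 4.12e-06), with vehicle at 115, 62.5 and 62.6 CPM. Gstm3 stood at 79.8, 987 and 1444 against 30.6, 47.6 and 43.7 CPM (8.37e-06) and Gstm1 at 968, 2824 and 3475 against 835, 724 and 702 CPM (0.00828). In these 3 transferases library 1 was the lowest of FGF19WT and still above every FGF19ΔKLB library. As members of gene families they may share reads. Nqo1, a quinone reductase outside that family, stood at 17.5, 24 and 61.4 against 9.34, 14.5 and 9.39 CPM (0.0187). Nfe2l2, the gene of NRF2, and Gclm overlapped at 71.1, 88.6 and 75.5 against 103, 81.5 and 89.1 and 111, 109.9 and 126 against 98.7, 134 and 110.4 CPM. The antioxidant response element TGACNNNGC was found in 2 of 12 matched promoters (16.7%), beside 11.8% of all.

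Acute phase genes stood higher with FGF19ΔKLB, and for many of them FGF19WT libraries 2 and 3 were lower than library 1. Of 21 acute phase genes, 8 were above without overlap and 1, Saa3, below, and DESeq2 called 2 higher. Apcs, serum amyloid P, stood at 276, 253 and 273 CPM with FGF19WT and 508, 988 and 565 CPM with FGF19ΔKLB (0.00494). Serpina3n, a protease inhibitor, stood at 727, 539 and 566 against 1145, 1730.2 and 1705 CPM (0.0108). For these 2 genes FGF19WT library 1 was close to libraries 2 and 3. The list's median difference was 1.19, but 0.31 with library 1 alone, and Fga, a fibrinogen chain, had library 1 well above libraries 2 and 3 at 3583, 839 and 657 against 4589, 6867 and 5296 CPM. Of 26 complement and coagulation genes 6 were above and 1 below, DESeq2 called Kng1 (3352, 1321 and 1834 against 5472, 4259 and 6997 CPM) and Cfi (785, 525 and 544 against 853, 1026 and 1176 CPM) higher, and the median was 0.63, or 0.06 with library 1 alone. Of 15 plasma carrier genes tested 13 had a positive difference, with a median of 0.39, or 0.15 with library 1 alone. None of the 15 was above without overlap and 1, Serpina6, was below at 749, 592 and 441 against 215, 427 and 196 CPM, neither edgeR nor DESeq2 called any, and 1 was higher and 1 lower at an unadjusted p under 0.05 by edgeR. Of 17 endoplasmic reticulum chaperones 7 were above without overlap, by small differences such as 407, 391 and 363 against 546, 525 and 476 CPM for Hsp90b1 (DESeq2 adjusted p 0.0347). In FPKM the groups overlapped for Hsp90b1, Pdia4, Edem1 and Pdia6, the 4 chaperones compared in that unit.

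Growth hormone responses were mixed. Cish and Socs2, both feedback inhibitors of STAT5, stood at 5.77, 7.39 and 9.27 against 14.9, 17.9 and 20.03 and 2.15, 2.12 and 4.32 against 7.88, 4.41 and 20.8 CPM (DESeq2 adjusted p 0.025 and 0.0394). FGF19WT library 1 was the lowest for Cish, and the groups nearly touched for Socs2. Igfbp2, which binds insulin-like growth factors and was listed under insulin signalling, stood at 20.6, 4.58 and 13.8 against 120.3, 21 and 266 CPM (0.00116). Igf1 itself did not overlap at 195, 9.62 and 8.48 against 306, 217 and 323 CPM, with FGF19WT library 1 close to FGF19ΔKLB and a log2 difference of 1.99 that was 0.53 with library 1 alone. In the list of 16 growth hormone and male-biased genes 5 were above and 1 below without overlap. Differences were positive in 8 and negative in 8, from -3.62 to 1.99, with a median of -0.02. DESeq2 called 3 of the list higher and 1 lower. Onecut1, a hepatocyte transcription factor, was the 1 of 20 nuclear receptors and liver factors that DESeq2 called, at 6.36, 4.4 and 2.15 against 18.1, 7.52 and 20.5 CPM (0.00804).

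Large differences were found among genes of the second kind, in which FGF19WT library 1 stood with FGF19ΔKLB. Wnt signalling keeps the hepatocytes around the central vein distinct from those near the portal vein. Of 12 Wnt feedback targets DESeq2 called 11 lower with FGF19ΔKLB, 2 were below without overlap, and the median difference was -4.03. With FGF19WT library 1 alone the median was 0.22, so the difference rests on libraries 2 and 3. Axin2, a universal Wnt target, stood at 2.4, 118 and 102 CPM with FGF19WT and 3.84, 1.9 and 3.44 CPM with FGF19ΔKLB. Lgr5, an R-spondin receptor, stood at 2.15, 55.8 and 64.7 against 1.69, 2.24 and 1.93 CPM. Nkd1 and Notum, both Wnt inhibitors, were the 2 members without overlap, at 3.79, 326 and 379 against 2.13, 1.75 and 2.39 and 21.3, 236 and 329 against 13.3, 15.1 and 17.8 CPM.

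Enzymes of the pericentral zone were likewise highest in FGF19WT libraries 2 and 3 over the list, but many were of the first kind. DESeq2 called 15 of 15 lower with FGF19ΔKLB, beside 3.41% of all genes, and edgeR called none. Of the 15, 8 were below without overlap, beside 6.39% of all genes. The median of -3.57 became -0.19 with library 1 alone. Relative to the FGF19ΔKLB mean, the list's median level was 0.19, 3.99 and 3.83 with FGF19WT and 1.33, 1.26 and 0.75 with vehicle. Glul, the glutamine synthetase of the cells next to the central vein, stood at 185, 14770.2 and 12685 CPM with FGF19WT, 255, 224 and 364 CPM with FGF19ΔKLB and 999.96, 659 and 549 CPM with vehicle. FGF19WT library 1 was the lowest of the 9 and library 2 the highest. Cyp2e1 and Aldh1a1 did not overlap even with library 1, at 4378, 8906 and 9312 against 2635, 3027 and 1388 and 1436, 2192 and 2545 against 799, 1061 and 973 CPM (DESeq2 adjusted p 0.00299 and 6.59e-04). Most periportal genes had the reverse order, with a positive difference in 11 of 12 and a negative one in 1. Gls2, the liver glutaminase, stood at 302, 3.41 and 6.23 against 275, 213 and 252 CPM and Cps1, the first enzyme of the urea cycle, at 2838, 40.1 and 32.9 against 2661, 2061 and 2113 CPM. Only 1 of 12 periportal genes did not overlap in that direction, and the median went from 1.22 to -0.25 with library 1 alone. DESeq2 called 0 of the 12 higher and 1 lower, and gave 8 of them no adjusted p. Cdh1, an adhesion gene of the list, went the other way, at FPKM of 0.702, 14.1 and 11.4 against 0.416, 0.685 and 1.55.

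Cell division genes were likewise high in FGF19WT libraries 2 and 3. Of 25 mitosis genes DESeq2 called 11 lower with FGF19ΔKLB, 2 (Bub1b and Ttk) were below without overlap, and the median of -2.59 became 0.37 with library 1 alone. Mki67, which marks cycling cells, stood at 2.92, 27.2 and 37.1 CPM with FGF19WT, 5.87, 6.07 and 6.13 CPM with FGF19ΔKLB and 0.908, 1.48 and 0.704 CPM with vehicle. For Mki67, FGF19ΔKLB was thus above FGF19WT library 1 and vehicle in every library, and under FGF19WT libraries 2 and 3. The mitosis list did not share this order. Its median level was -1.15, 0.49 and 0.71 in FGF19ΔKLB libraries 1, 2 and 3 and -0.03 in FGF19WT library 1. In vehicle it was -1.04, -0.88 and -0.93, so FGF19ΔKLB library 1 lay under FGF19WT library 1 and near vehicle. Among 20 matched mitosis promoters 18 held CCAAT (90.0%) and 7 the cell cycle homology region TTTGAA (35.0%), beside 36.0% and 11.3% of all. Oncofetal and imprinted genes were mixed. Of 15 tested, 10 had a negative and 5 a positive difference, Prom1 was below and Tff3 above without overlap, DESeq2 called 4 lower (Afp, Meg3, Rian and Prom1), and the median of -0.85 became 0.25 with library 1 alone. Afp, α-fetoprotein, stood at 6.67, 195 and 407 against 5.4, 3.96 and 14.5 CPM with vehicle at 1.9, 2.78 and 2.58 CPM, and Gpc3, a fetal and tumour proteoglycan, at 2.87, 49.5 and 34 against 4.43, 3.32 and 34.6 CPM, where FGF19ΔKLB library 3 reached the level of FGF19WT library 3. The imprinted RNA Meg3 stood at 9.05, 618 and 1067 against 5.84, 1.78 and 16.3 CPM, whereas H19, another imprinted RNA, overlapped at 5.3, 2.84 and 23.8 against 6.64, 3.33 and 11.2 CPM.

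Genes of the integrated stress response were high in FGF19WT libraries 2 and 3 as well. DESeq2 called 7 of 13 lower with FGF19ΔKLB and 1, Nupr1, was below without overlap at 8.01, 33.7 and 24.1 against 4.11, 5.76 and 4.59 CPM. Asns, the asparagine synthetase, stood at 0.425, 38.8 and 50.7 against 0.249, 1.17 and 0.672 CPM, and Phgdh, the first enzyme of serine synthesis, at 0.308, 33.1 and 39.7 against 0.22, 0.673 and 0.704 CPM. The list's median was -1.67 and had the opposite sign, 0.69, with library 1 alone. Igfbp1, a stress-responsive binding protein for insulin-like growth factors, stood at 57.8, 2787 and 1763 against 78.8, 75.3 and 235 CPM. Mitochondrially encoded respiratory genes were below without overlap in 7 of 13, with a median of -0.56, and mitochondrial counts made up 6.92% to 11.9% of FGF19WT libraries and 5.09% to 6.48% of FGF19ΔKLB libraries.

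**Figure D3:**
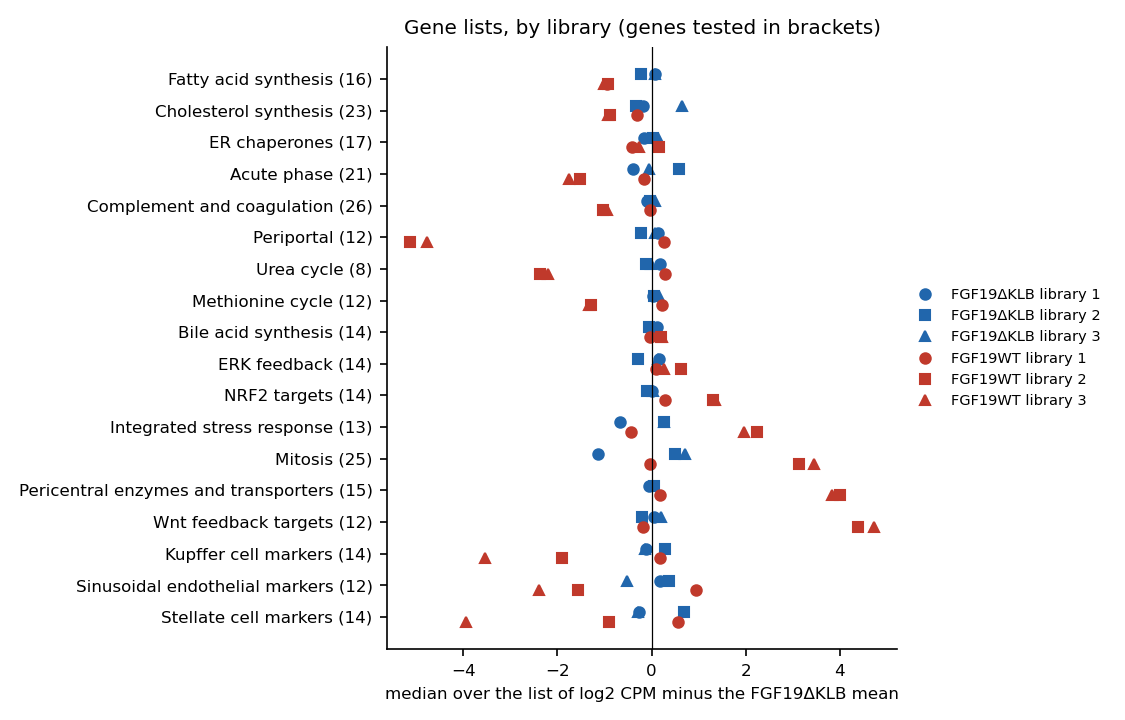
Rows are gene lists and points are the median, over the tested members, of log2 CPM minus the FGF19ΔKLB mean, for each library (blue FGF19ΔKLB, red FGF19WT; circle, square and triangle for libraries 1, 2 and 3). In fatty acid synthesis the 3 red points lie together and left of the blue points, while in the Wnt feedback and mitosis lists the red circle lies among the blue points and in the periportal list just right of them.

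**Figure D4:**
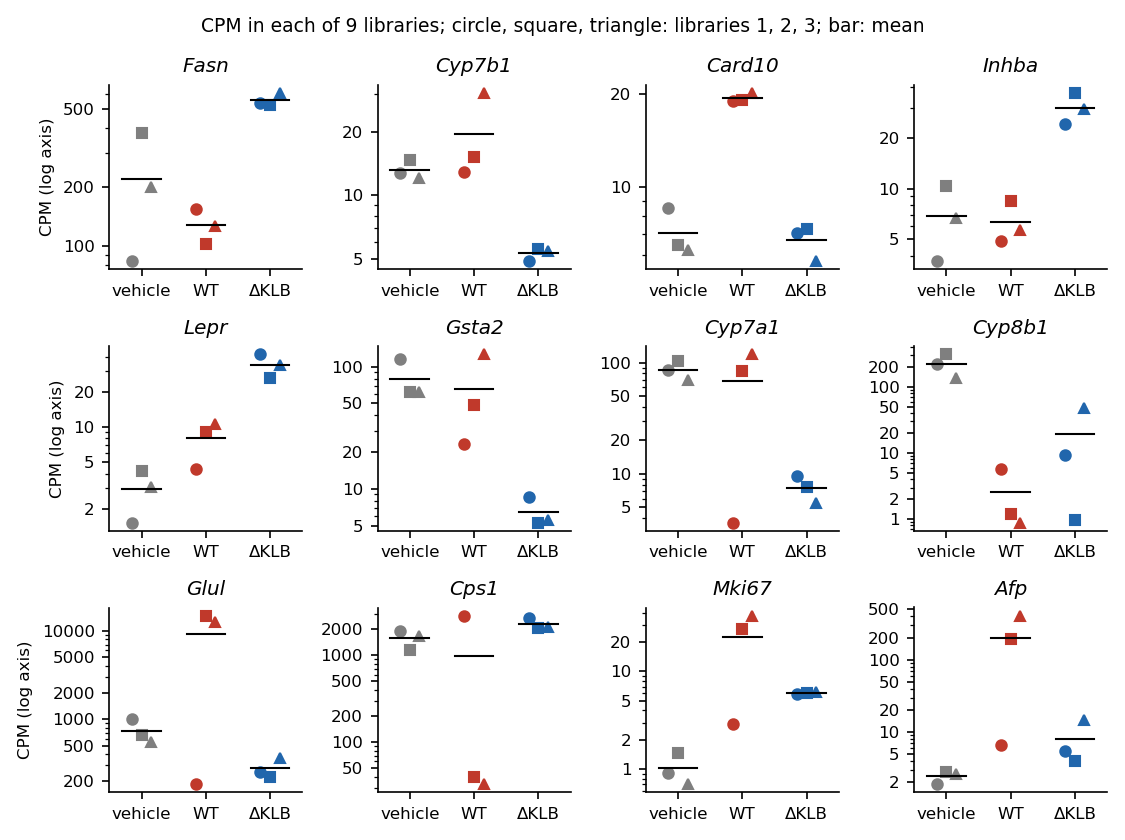
CPM of 12 genes on log axes in the 3 vehicle, 3 FGF19WT and 3 FGF19ΔKLB libraries, with a bar at each mean (circle, square and triangle for libraries 1, 2 and 3). Fasn, Cyp7b1, Card10, Inhba, Lepr and Gsta2 have FGF19ΔKLB apart from all FGF19WT libraries, and in Cyp7a1, Glul, Cps1, Mki67 and Afp the FGF19WT circle lies far from the square and the triangle.

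Markers of other liver cells differed between these libraries, and their part in the results was not tested. The 14 Kupffer cell markers summed to 293, 96.2 and 42.4 CPM with FGF19WT and 243, 308 and 276 CPM with FGF19ΔKLB, so FGF19WT libraries 2 and 3 were low. Clec4f, their defining lectin, stood at 50.9, 5.27 and 1.55 against 58.3, 58.7 and 64.8 CPM, and Timd4 was at 0 in FGF19WT libraries 2 and 3. The 12 sinusoidal endothelial markers summed to 252, 69 and 90.2 against 163, 173 and 109 CPM, again low in libraries 2 and 3. The 14 stellate cell markers summed to 240.1, 199 and 216 against 129.8, 223 and 105 CPM and overlapped, but the members went different ways. Their median level relative to FGF19ΔKLB was 0.56, -0.91 and -3.93 on the log2 scale in FGF19WT libraries 1, 2 and 3. Lrat, the retinol-storing enzyme of stellate cells, stood at 8.47, 0.999 and 0.45 against 7.3, 11.4 and 7.01 CPM and was low in libraries 2 and 3, while Reln, a secreted matrix protein and the most abundant marker there, was high in them at 47.9, 175 and 212 against 31.3, 46.1 and 32.4 CPM. The 13 hepatocyte markers summed to 209601, 104992 and 115213 against 256409, 211553 and 301061 CPM, of which albumin made up the greater part.

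Some neutrophil and plasma cell genes stood higher with FGF19ΔKLB. Of 10 neutrophil markers tested 4 were above without overlap and DESeq2 called 4 higher, but their sum, 11, 4.69 and 2.64 CPM with FGF19WT against 21, 203 and 11.4 CPM with FGF19ΔKLB, was carried by FGF19ΔKLB library 2. S100a9, a calcium-binding protein of neutrophils, shows this at 3.28, 1.26 and 0.435 against 6.22, 75.6 and 3.78 CPM. Vehicle sums of the neutrophil markers were 5.23, 33.3 and 37.4 CPM, and vehicle libraries 2 and 3 exceeded FGF19ΔKLB libraries 1 and 3. Among 9 B and plasma cell markers 6 had a positive and 3 a negative difference, and 3 were above without overlap. Their median difference of 1.04 became -0.31 with FGF19WT library 1 alone. The sums were 31.7, 6.79 and 4.21 CPM with FGF19WT against 34.7, 84.2 and 51.4 CPM with FGF19ΔKLB. Ighg1, an immunoglobulin heavy chain, stood at 1.41, 0.703 and 0.174 CPM with FGF19WT and 3.75, 14.1 and 13.6 CPM with FGF19ΔKLB, both far under vehicle at 162, 97.8 and 67.5 CPM (DESeq2 adjusted p 3.39e-05). Igkc, a light chain constant region, stood at 9.54, 2.9 and 2.23 against 15.8, 42.4 and 26.9 CPM (0.00292). The B cell gene Ms4a1 overlapped between the groups at no more than 0.996 CPM. The plasma cell gene Mzb1 overlapped as well, at FPKM of 0.131, 0.0483 and 0.0427 against 0.168, 0.205 and 0.0823.

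The deposited FPKM and the CPM agreed on most of these orders. Of 247 named genes, 48 were above without overlap in both units, 47 below in both and 128 overlapping in both. In 17 genes the groups were apart in CPM and overlapped in FPKM, all of them with FGF19ΔKLB above, among them Hsp90b1, Socs2, Fgfr3 and Foxo1. In 7 genes, such as Etv5 and Stat5a, FGF19ΔKLB was below in FPKM only. The mismatches thus all went 1 way, with FGF19ΔKLB relatively higher in CPM. The TMM factors that divide the CPM were 0.968, 1.16 and 1.06 with FGF19WT and 0.931, 0.968 and 0.848 with FGF19ΔKLB. Their part in the mismatches was not tested, and counts of genes above without overlap depend on the unit.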

How the data were processed

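The authors deposited one table with an estimated count and an FPKM value per gene for each library. Per the labels' protocols, RNA was extracted with Trizol. Bowtie 0.12.2, HISAT2 2.0, StringTie 1.3.0 and build mm8 are named in the submitters' processing notes without roles. All 28517 gene identifiers and starts match GENCODE M21 on GRCm38, so coordinates are on GRCm38. The deposited counts are whole numbers not scaled to library size. They were tested with edgeR 4.0.16 in R 4.3.3: TMM, filterByExpr (18142 genes kept), a robust quasi-likelihood fit over 9 libraries with group as the only term, 6 residual degrees of freedom, and Benjamini-Hochberg adjustment with a threshold of 0.05. FPKM values deposited by the authors entered limma 3.58.1 after log2(FPKM + 1), keeping genes that reached 1 FPKM in 3 libraries. DESeq2 1.42.0 was an alternative. The edgeR procedure was tested on simulated data with 200 shifted genes. The biological coefficient of variation was 0.471, and 0.375 without FGF19WT library 1. Precision rests on this spread, on 3 libraries a group and on about 16.3 to 18.3 M read pairs per library (65.1 to 73.3 M counts).

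Members and gene lists were chosen with earlier results of these data known. Named genes are a fixed set of metabolism, FGF and growth genes, up to 12 genes per direction with the widest gap between groups at a mean of at least 1 CPM and, of each list, the 4 with the smallest p. Other list members are named to spell out a count or a pathway and were chosen after their values were seen. Of 795 listed symbols in 55 lists, 5 were not in the table and 773 passed the filter. List medians are described without a test. List levels use log2 CPM with 2 counts added. Promoters are RefSeq entries matched by symbol, on GRCm38.p6. Numbers were not taken as pairs, because same-numbered libraries share only a number. Deviations of same-numbered FGF19WT and FGF19ΔKLB libraries from their group means had r of 0.05, -0.05 and 0.15. These values cannot decide pairing, since the split of library 1 from libraries 2 and 3 dominates the FGF19WT deviations. Some list members are not reported here by name.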

Additional observations from a re-analysis of the deposited data

How the results depend on the processing

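The count of called genes depends on the FGF19WT libraries and on the tool. Against 0 higher and 0 lower genes by edgeR over 9 libraries, DESeq2 gave 216 and 618, and the 6 libraries of the compared groups gave 1 (Adnp, adjusted p 0.0341) and 0. No filter, at least 5 CPM in 3 libraries, DESeq2 size factors, limma on FPKM and counts divided by 4 all gave 0 and 0. Leaving out 1 library at a time gave 0 to 2077 higher and 0 to 1769 lower genes. The highest counts came without FGF19WT library 1, and 1 gene was called higher without vehicle library 1 and without FGF19ΔKLB library 1. FGF19WT library 1 alone, assumed to vary like the other groups, gave 6 higher and 1 lower. The cause of these shifts was not tested. The replicate block gave 0 and 0. Same-numbered libraries share only a number.

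Of 247 named genes, DESeq2 gave 237 an adjusted p and called 96, and 178 were called in the same direction without FGF19WT library 1. Car3 was the only 1 of 6 listed adipocyte markers that passed the filter, so it cannot stand for adipocytes here. Without FGF19WT library 1 edgeR called it in the opposite direction, at 1.21 (adjusted p 0.0194) against -0.74. Its range when 1 library was left out was -1.20 to 1.21. With FGF19WT library 1 alone, 65 named genes changed sign without a call, as did 26 of 55 list medians. Under limma 8 of 54 list medians changed sign. Depth was alike in all libraries, and levels under 1 CPM rest on few read pairs.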
